A study of Mus musculus with 12 samples.

Results

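Tspan8 encodes a tetraspanin, a protein of the cell surface, and it was examined here in mouse ovaries with stage I and stage II tumors together with its relatives Cd9, Cd63, Cd81 and Cd82. All 5 genes were chosen from earlier results of the same arrays: Tspan8 for its high level in tumor ovaries, and the others as relatives of it. Every probe set annotated to one of them was kept, which gave 7 of the 16376 probe sets in the expression table. Tspan8 had 4 probe sets, and Cd9, Cd81 and Cd82 had 1 each. Cd63 is not analysed here, so 4 of the 5 genes had values, among 10949 genes measured in all.

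Tetraspanins cross the plasma membrane with short tails inside the cell and a large loop outside it. They bind each other and partner proteins such as integrins, immunoglobulin superfamily proteins and the membrane protease Adam10, and these assemblies bear on adhesion, migration and the sorting of cargo into extracellular vesicles. Cd9, Cd63 and Cd81 are used as markers of such vesicles. In the ovary, Cd9 sits on the oocyte surface, where it is needed for the fusion of mouse eggs with sperm. TSPAN8 is abundant in epithelia of the human gut and in several human carcinomas.

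The stage I tumor ovaries (3 arrays) and the stage II tumor ovaries (3 arrays) came from Pgrcre/+PgrBLsL/+ mice, which carry a Cre allele named for the progesterone receptor gene Pgr together with a PgrBLsL allele. The control ovaries (6 arrays) had no tumor and came from Pgrcre/+ mice, so every mouse carried Pgrcre. All mice were 23 weeks old and in diestrus, and total RNA of the ovary was measured with 1 array per sample. No group carried PgrBLsL without a tumor, so the allele and the tumor cannot be told apart, and the 2 tumor stages share their controls. The sources used here do not describe how PgrBLsL is built, or which cells of the ovary it acts in.

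All values are log2 expression levels as deposited, so a difference of 1 is a 2-fold difference. The median level of an array lay between 7.087 and 7.153, and correlations between arrays lay between 0.9673 and 0.9969. Pgr had log2 levels of 9.11, 9.05 and 9.28 in stage I ovaries and 9.78, 9.96 and 10.09 in stage II ovaries. In control ovaries it had 3.74 to 4.60. The mean level of 6 granulosa markers, which define the ovarian follicle, was 11.16 to 11.67 in stage I ovaries and 10.01 to 10.94 in stage II ovaries, against 10.995 to 11.57 in control ovaries, above the array medians in each group. Because whole ovaries were measured, fewer cells of a type and less RNA per cell cannot be told apart.

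The annotated starts of the genes differ in base composition, and 3 of them are shown here because Tspan8 was the member with the large difference, Cd9 rose in stage II and Cd81 did not pass the test. Each sequence runs 5′ to 3′ from 250 bases before to 50 bases after a RefSeq start in GRCm38.p6, and capitals mark CG dinucleotides. The Tspan8 window lies at chr10:115817034-115817333 on the + strand, the Cd9 window at chr6:125494711-125495010 on the - strand, and the Cd81 window at chr7:143052500-143052799 on the + strand.
Tspan8: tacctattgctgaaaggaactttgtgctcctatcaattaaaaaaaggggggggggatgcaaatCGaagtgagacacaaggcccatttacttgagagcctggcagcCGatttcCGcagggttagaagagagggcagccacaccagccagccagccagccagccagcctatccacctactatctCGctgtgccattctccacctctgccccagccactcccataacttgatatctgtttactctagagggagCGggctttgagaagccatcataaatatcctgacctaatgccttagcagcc
Cd9: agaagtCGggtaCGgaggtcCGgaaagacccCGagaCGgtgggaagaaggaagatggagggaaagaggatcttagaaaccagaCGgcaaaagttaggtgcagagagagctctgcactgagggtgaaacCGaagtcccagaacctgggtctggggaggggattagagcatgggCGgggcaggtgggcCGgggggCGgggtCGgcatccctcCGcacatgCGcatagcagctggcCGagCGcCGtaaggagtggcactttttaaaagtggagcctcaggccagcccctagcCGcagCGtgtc
Cd81: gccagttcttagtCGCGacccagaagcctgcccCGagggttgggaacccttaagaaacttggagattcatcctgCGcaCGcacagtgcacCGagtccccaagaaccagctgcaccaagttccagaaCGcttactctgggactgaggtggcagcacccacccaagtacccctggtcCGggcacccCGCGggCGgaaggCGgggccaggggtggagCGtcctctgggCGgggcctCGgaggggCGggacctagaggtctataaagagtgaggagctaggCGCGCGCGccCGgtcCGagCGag
The Tspan8 window held 5 CG dinucleotides and had a GC content of 51.67%, and 38% of the 32851 windows in the table held fewer CG dinucleotides. The Cd9 window held 18 and the Cd81 window 23, with GC contents of 61.33% and 65.67%, against a median of 7 CG dinucleotides and 52.67% GC over all windows. The letters AGAACA, a half-site of steroid receptors, were searched on both strands and were in none of the 3 windows, while 19% of all windows held them. The letters TATAAA were in the Cd81 window alone among the 3, and in 13.6% of all windows. These matches describe the letters of these windows.

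Tspan8 had its lowest levels in control ovaries, higher levels in stage I ovaries and its highest levels in stage II ovaries, by each of its 4 probe sets. With the brightest, 1424649_a_at, the log2 level was 12.52, 10.76 and 10.64 in stage I ovaries and 13.30, 13.22 and 13.37 in stage II ovaries, against 6.97 to 7.81 (median 7.56) in control ovaries. The 3 groups did not overlap. The means were 11.31 ± 1.05 in stage I (SD, n = 3), 13.30 ± 0.07 in stage II (SD, n = 3) and 7.46 ± 0.34 in controls (SD, n = 6). The log2 difference from controls was 3.85 (SE 0.34), or 14.4-fold, in stage I and 5.84 (SE 0.34), or 57.2-fold, in stage II. Each SE uses 1 spread shared by the 3 groups, so it does not show the wider scatter of stage I. Stage II was above stage I by 1.99 (SE 0.39), or 3.98-fold. These differences are a description with no test, because Tspan8 was chosen from them.

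The level of this probe set was above that of 96.3% of all probe sets in stage I ovaries and 99.6% in stage II ovaries, against 54.5% in control ovaries. Ranked by the difference from controls among the 16376 probe sets, it stood at place 13 in stage I and place 14 in stage II. The other 3 probe sets took places 16 to 40 in stage I, and places 12 to 39 in stage II.

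**Figure D1:**
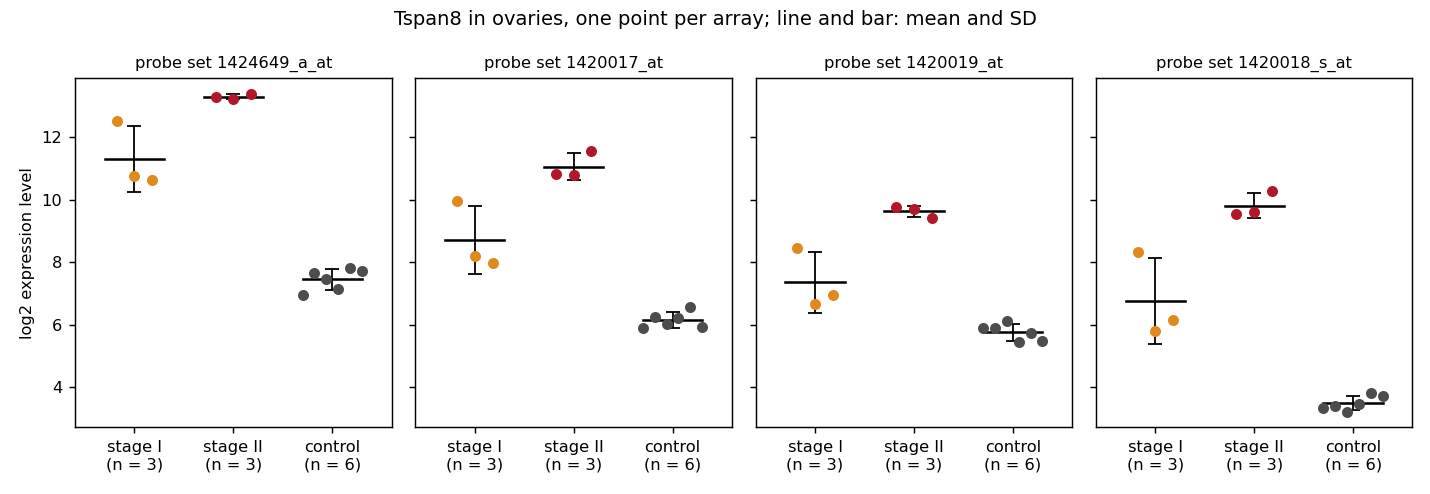
Log2 expression level of Tspan8 by each of its 4 probe sets, with 1 point per array in stage I (n = 3), stage II (n = 3) and control (n = 6) ovaries. Lines and bars give the mean and SD. In each panel the 3 groups are apart, and 1 stage I ovary stands above the other 2.

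The other 3 Tspan8 probe sets were dimmer and ordered the groups in the same way. Probe set 1420017_at read 9.95, 8.20 and 7.97 in stage I ovaries and 10.84, 10.78 and 11.57 in stage II ovaries, against 5.89 to 6.58 in control ovaries. Probe set 1420019_at read 8.47, 6.66 and 6.96 in stage I ovaries and 9.76, 9.71 and 9.42 in stage II ovaries, against 5.44 to 6.14 in control ovaries. The gap between the lowest stage I ovary and the highest control was narrow with 1420019_at and wide with 1424649_a_at.

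Probe set 1420018_s_at was the dimmest of the 4 in control ovaries. It read 8.34, 5.81 and 6.16 in stage I ovaries and 9.55, 9.59 and 10.28 in stage II ovaries, against 3.23 to 3.82 in control ovaries. Its control levels lay near the lowest value of the whole table, 2.686, and only 4.63% of probe sets had a lower control mean. No background level was set, so its fold over controls is not given. On the log2 scale its differences from controls were 3.28 (SE 0.42) in stage I and 6.31 (SE 0.42) in stage II.

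The size of the difference therefore depended on the probe set, while its direction did not. In stage I it was 3.03-fold with 1420019_at, 5.86-fold with 1420017_at and 14.4-fold with 1424649_a_at. In stage II the same 3 probe sets gave 14.5-fold, 29.9-fold and 57.2-fold. Stage II was above stage I by 4.81-fold, 5.11-fold and 3.98-fold with these probe sets, and by 8.22-fold with 1420018_s_at.

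Stage I ovaries were not alike in Tspan8. The first stage I ovary was above the mean of the other 2 by 1.82 on the log2 scale with 1424649_a_at, or 3.52-fold, and by 1.86, 2.35 and 1.66 with 1420017_at, 1420018_s_at and 1420019_at. It remained below the lowest stage II ovary by 0.70, 0.83, 1.22 and 0.95 with the same 4 probe sets in that order. Without it, the stage I difference with 1424649_a_at was 3.24 and the difference between stage II and stage I was 2.60. The SD over stage II ovaries was 0.07 with 1424649_a_at, 0.44 with 1420017_at, 0.41 with 1420018_s_at and 0.18 with 1420019_at, against 1.05, 1.08, 1.37 and 0.97 over stage I ovaries with the same probe sets.

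Some markers were also highest in the first stage I ovary and others were not. The mean log2 level of 8 macrophage markers was 9.35 there, against 8.48 and 8.90 in the other stage I ovaries. The mean of 9 epithelial markers was 7.36, against 7.48 and 7.06, so the second ovary was highest. Within that list the keratin gene Krt8 was highest in the first ovary, at 10.41 against 9.72 and 9.36, while Epcam was highest in the second, at 9.60, with 9.15 in the first and 8.97 in the third. Ovgp1, the oviduct glycoprotein gene, was low in this ovary at 6.21, against 11.77 and 7.81 in the other stage I ovaries. The mean of 4 luteal markers was also lowest there, at 9.80 against 11.155 and 12.085. Their part in the Tspan8 level was not tested. Ovgp1 was highest in control ovary 5 at 12.70, in stage I ovary 2 at 11.77 and in stage II ovary 2 at 11.58. With these 3 arrays left out, the Tspan8 difference from controls with 1424649_a_at was 4.19 in stage I and 5.95 in stage II, and the difference between stage II and stage I was 1.76.

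The genes whose profile lay nearest to Tspan8 were found by the root mean square difference between log2 deviations from the control mean over the 12 arrays. Each gene, Tspan8 included, was read at its probe set with the highest mean, which for Tspan8 was 1424649_a_at. The nearest, at 0.348, was Pmaip1, the gene of Noxa, which promotes apoptosis. It was followed by Svs6, a seminal vesicle secretory protein gene, at 0.569, and by Ly6d, a surface protein gene of the Ly6 family, at 0.652. Vwce, which encodes a protein with von Willebrand factor C and EGF domains, followed at 0.725, and Defb1, a beta-defensin gene, at 0.770. Defb1 was near with 1419492_s_at, which was above control by 3.03 in stage I and 5.76 in stage II. Its other probe set, 1419491_at, was above control by 5.82 and 8.44. Pmaip1 read 10.10, 8.42 and 7.97 in stage I ovaries and 11.26, 11.39 and 10.99 in stage II ovaries, against 4.41 to 5.72 in control ovaries. Each of the 5 was highest among stage I ovaries in the first one. They were picked for likeness to Tspan8 over the same arrays, so their profiles carry no test.

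**Figure D2:**
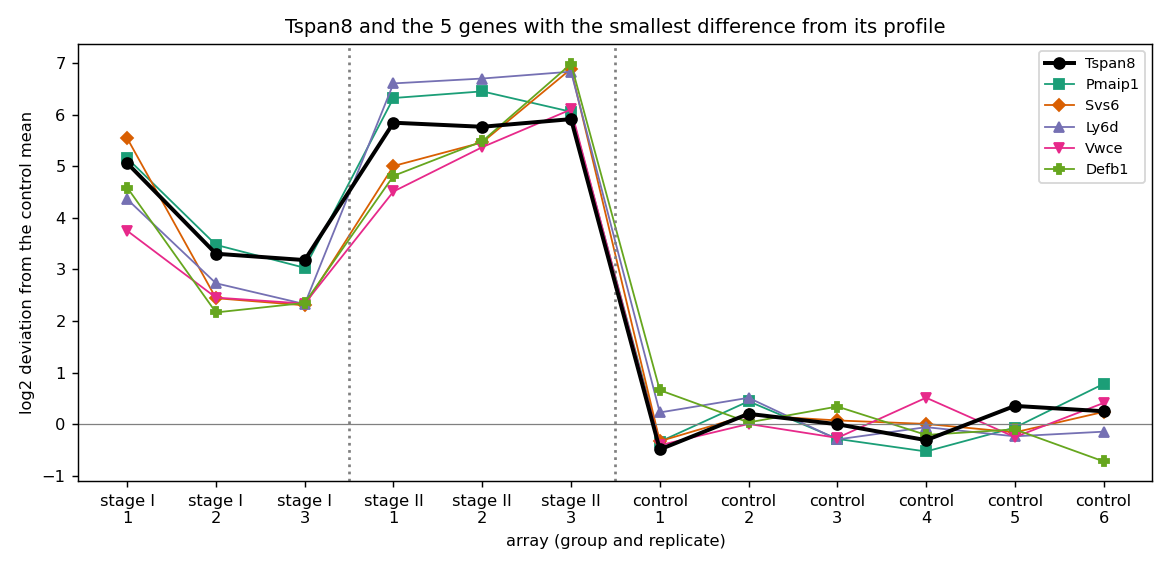
Log2 deviation from the control mean (vertical axis) in each of the 12 arrays (horizontal axis) for Tspan8, probe set 1424649_a_at, and the 5 genes with the smallest root mean square difference from it. All 6 genes are near 0 in control ovaries and above it in each stage I and stage II ovary, and among stage I ovaries all 6 are highest in the first.

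Cd9, the tetraspanin of the oocyte surface and of many epithelia, rose in stage II ovaries and did not pass the test in stage I ovaries. Its log2 level was 10.36, 10.49 and 10.32 in stage I ovaries and 10.85, 10.92 and 11.27 in stage II ovaries, against 10.08 to 10.58 (median 10.33) in control ovaries. The stage II ovaries lay above every stage I and control ovary, and the stage I ovaries lay within the control range. Stage II was above control by 0.69 (SE 0.12), or 1.62-fold, with an adjusted p of 0.00151 in limma over all 16376 probe sets. It was above stage I by 0.62 (SE 0.13), or 1.54-fold, with a limma adjusted p of 0.0135. The stage I difference from control was 0.07 (SE 0.12, limma adjusted p = 0.992), with a 95% interval of -0.18 to 0.32.

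The difference of Cd9 between stage II and control passed in each of the 22 alternative settings, with limma adjusted p from 0.000861 to 0.0103. The difference between the stages was 0.59 (limma adjusted p = 0.0546) without stage I ovary 3 and 0.50 (limma adjusted p = 0.0551) without stage II ovary 3, and so lost its call. In stage II the fold difference of Cd9 was 1.62, beside 14.5 to 57.2 for the 3 Tspan8 probe sets whose fold is given, and the gap between these genes was not tested.

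Cd81, which also acts on the egg surface and as part of the B cell co-receptor, did not pass the test in any comparison. Its log2 level was 12.52, 12.52 and 12.60 in stage I ovaries and 12.60, 12.51 and 12.47 in stage II ovaries, against 12.44 to 12.74 in control ovaries. The 3 groups overlapped. The difference from control was 0.01 in stage I (95% interval -0.14 to 0.16, limma adjusted p = 0.999) and -0.02 in stage II (95% interval -0.17 to 0.13, limma adjusted p = 0.885). Between stage II and stage I it was -0.03 (95% interval -0.20 to 0.15, limma adjusted p = 0.882).

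Cd82, known as a metastasis suppressor in human carcinomas, had small differences that did not pass the test. Its log2 level was 9.82, 9.50 and 9.53 in stage I ovaries and 9.52, 9.64 and 9.54 in stage II ovaries, against 9.36 to 9.52 in control ovaries. The first stage I ovary, which had the highest Tspan8 of stage I, also had the highest Cd82 of all ovaries. Stage I was above control by 0.20 (SE 0.07, limma adjusted p = 0.686, 95% interval 0.03 to 0.36). Stage II was above control by 0.14 (SE 0.07, limma adjusted p = 0.203, 95% interval -0.02 to 0.31), and its 3 arrays lay just above the controls, at 9.520 or more against 9.517 or less. Between stage II and stage I the difference was -0.05 (limma adjusted p = 0.773).

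**Figure D3:**
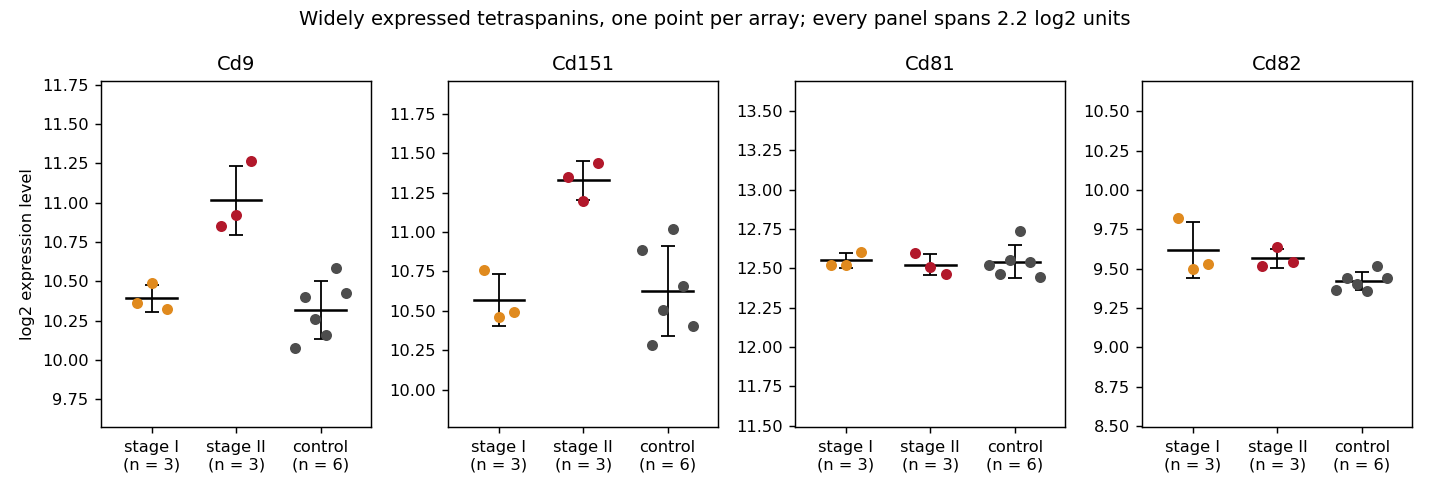
Log2 expression level of Cd9, Cd151, Cd81 and Cd82 with 1 point per array in stage I (n = 3), stage II (n = 3) and control (n = 6) ovaries; lines and bars give the mean and SD, and each vertical axis spans the same width. Cd9 and Cd151 are highest in the stage II ovaries, Cd81 overlaps between all groups, and Cd82 has 1 high stage I ovary.

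Of the 31 tetraspanins listed, 24 were measured, and the 23 other than Tspan8 were each read at the probe set with the highest mean. In stage I none of the 23 passed the test in either direction, where 0.201% of 10949 genes were called higher and 0% lower. Without adjustment, 415 genes higher in stage I and 286 lower had limma p under 0.05. Chance also passes that threshold when so many genes are tested, so the 286 are not read as genes that fell. A fit with array weights called 1 gene lower. The median difference of the 23 in stage I was 0.01, beside -0.00 over all genes. The stage I differences farthest from 0 were 0.31 for Tspan1 (limma adjusted p = 0.945) and -0.25 for Tspan2 (limma adjusted p = 0.534).

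In stage II against control, 3 of the 23 rose and 4 fell, where 9.59% of all genes were called higher and 10.9% lower. The median difference of the 23 was 0.01, beside -0.01 over all genes. Cd151, which binds laminin-binding integrins, rose by 0.70 (SE 0.15, limma adjusted p = 0.00611), and Cd9 rose as described. Tspan17, a regulator of Adam10 that was named after its values were seen, rose by 0.29 (limma adjusted p = 0.0263). The 4 that fell were Tspan2, Tspan3, Tspan6 and Tspan14. These counts are near the shares over all genes, and nothing particular to tetraspanins is read from them.

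Cd151 read 10.76, 10.46 and 10.49 in stage I ovaries and 11.35, 11.20 and 11.44 in stage II ovaries, against 10.28 to 11.02 in control ovaries. Stage II lay above both other groups. The other Cd151 probe sets were dimmer and differed less between stage II and control, by 0.28 with 1427525_at (limma adjusted p = 0.0419) and 0.16 with 1420921_at (limma adjusted p = 0.368).

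Tspan2, known for its place in myelinating glia of the brain, had the largest fall. It read 7.12, 7.20 and 7.30 in stage I ovaries and 7.07, 7.04 and 6.83 in stage II ovaries, against 7.35 to 7.60 in control ovaries. Both stages lay below every control. The stage II difference was -0.47 (SE 0.08, limma adjusted p = 0.00114), and a second probe set gave -0.46.

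Tspan3 read 11.07, 11.02 and 11.10 in stage I ovaries and 10.69, 10.80 and 10.49 in stage II ovaries, against 10.90 to 11.13 in control ovaries. Stage II lay below the other groups, which overlapped, and differed from control by -0.38 (limma adjusted p = 0.00413). Tspan6, which has been tied to the release of extracellular vesicles, fell by 0.39 (limma adjusted p = 0.0147), and Tspan14, a regulator of Adam10, fell by 0.35 (limma adjusted p = 0.0185). Without stage II ovary 3 the adjusted p was 0.082 for Tspan6, 0.103 for Tspan14 and 0.133 for Tspan17, and without stage II ovary 2 it was 0.0613 for Tspan17. With every array kept and the replicate number added to the fit, these calls were also lost. The limma adjusted p was then 0.0817 for Tspan6, 0.165 for Tspan14 and 0.0719 for Tspan17. Tspan17 had 0.112 without the 3 arrays of highest Ovgp1.

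In stage II against stage I, 2 of the 23 rose and 3 fell, where 6.27% of all genes were called higher and 5.57% lower. After quantile normalization the calls over all genes were 662 higher and 900 lower, against 687 and 610 before it. Cd151 rose by 0.76 (limma adjusted p = 0.016) and Cd9 by 0.62. Tspan3 differed by -0.40 (limma adjusted p = 0.0123), Tspan6 by -0.47 (limma adjusted p = 0.0209) and Tspan14 by -0.49 (limma adjusted p = 0.0136). Without stage I ovary 3 none of these 5 calls was kept, with adjusted p of 0.0612 for Cd151, 0.0546 for Cd9, 0.0515 for Tspan3, 0.0546 for Tspan6 and 0.0583 for Tspan14. Without stage II ovary 3 the calls of Cd9 (0.0551), Cd151 (0.0668) and Tspan6 (0.0683) were lost, without stage I ovary 2 those of Cd151 (0.064) and Tspan6 (0.0521), and without stage I ovary 1 that of Tspan6 (0.0607).

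**Figure D4:**
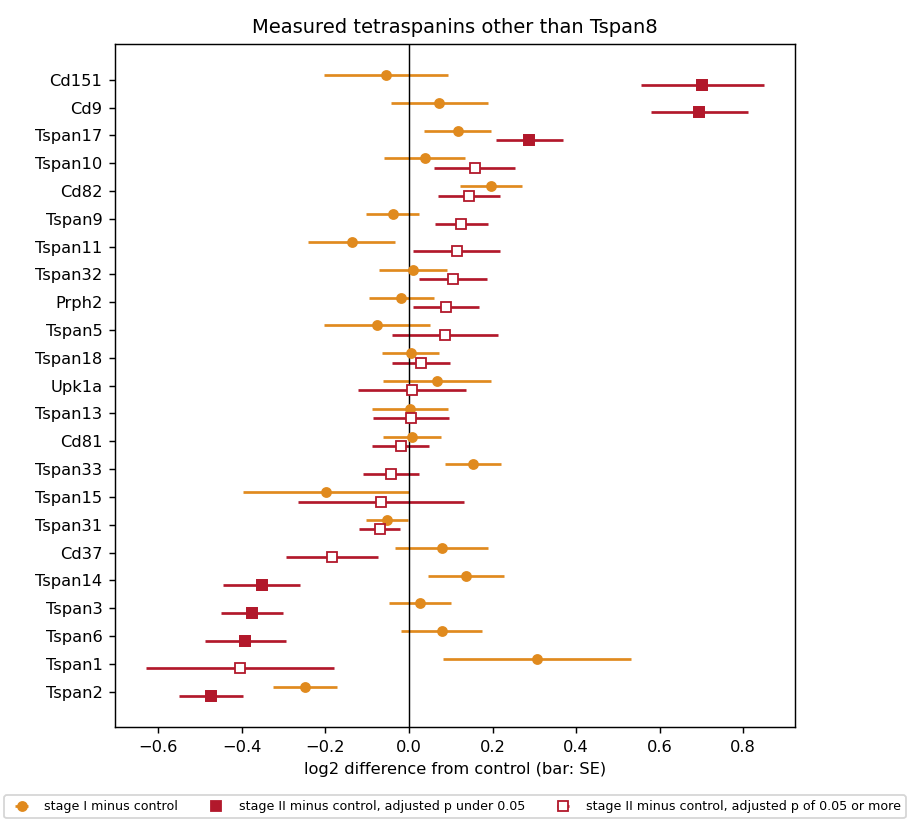
Log2 difference from control (horizontal axis, bars give the SE) of the 23 measured tetraspanins other than Tspan8, in stage I (circles) and stage II (squares). Filled squares mark the 7 genes with an adjusted p under 0.05 in stage II, of which 3 are above 0 and 4 below, and all differences lie between -0.47 and 0.70.

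Of 23 partner proteins listed, 17 were measured, and none passed the test in stage I. The stage I differences farthest from 0 were 0.67 for Cd36 (limma adjusted p = 0.646) and 0.47 for Vcam1 (limma adjusted p = 0.298). In stage II 3 rose and 1 fell against control, with a median difference of 0.06 over the 17, where 9.59% of all genes were called higher and 10.9% lower. Nothing particular to the list is read from counts this near to those shares. Cd36, a scavenger receptor and fatty acid transporter, read 10.85, 9.68 and 9.40 in stage I ovaries and 11.70, 11.52 and 11.51 in stage II ovaries, against 9.11 to 9.63 in control ovaries. Among stage I ovaries it was highest in the first, as Tspan8 was, and it rose by 2.28 in stage II (SE 0.24, limma adjusted p = 4.05e-05).

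Cd47, the integrin-associated receptor of thrombospondin, rose by 0.42 in stage II (limma adjusted p = 0.00338). Adam10 rose by 0.16 (limma adjusted p = 0.0473) and Igsf3, an immunoglobulin superfamily gene, fell by 0.37 (limma adjusted p = 0.0453), and both lay close to the threshold. The Adam10 call was lost in 17 of 22 alternative settings and the Igsf3 call in 12. The integrins Itga3, Itga4, Itga6, Itgb1 and Itgb4 did not pass, with stage II differences between -0.16 and 0.21. Between stage II and stage I, Cd36 alone of the 17 passed, at 1.61 (limma adjusted p = 0.0043). In that comparison 6.27% of all genes were called higher and 5.57% lower, so the count is near these shares. The Cd36 call was lost with the compared groups alone (adjusted p = 0.0541) and without the 3 arrays of highest Ovgp1 (adjusted p = 0.0556).

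Of 19 genes of vesicle formation listed, 17 were measured, and none passed in stage I. In stage II 2 rose and 1 fell, with a median of -0.00 over the 17, and these counts too are near the shares of 9.59% and 10.9% over all genes. Sdc1, the syndecan that works with syntenin in vesicle formation, read 9.86, 10.71 and 10.84 in stage I ovaries and 10.14, 9.89 and 9.88 in stage II ovaries, against 10.69 to 12.14 in control ovaries. It fell by 1.28 in stage II (limma adjusted p = 0.00999), with adjusted p of 0.0509 without stage II ovary 3. Anxa2, a membrane-binding annexin, rose by 0.45 (limma adjusted p = 0.0347) and Flot2, a flotillin of membrane rafts, by 0.37 (limma adjusted p = 0.0244), with adjusted p of 0.198 and 0.147 without stage II ovary 3. The Anxa2 call was lost in 8 of 22 alternative settings, among them the fits without control ovary 2, 3 or 5 or stage II ovary 2, and the Flot2 call was also lost without stage II ovary 1 (adjusted p = 0.0513). Pdcd6ip, Tsg101 and Sdcbp, which encode Alix, Tsg101 and syntenin, had stage II differences of 0.08, -0.04 and -0.18 and did not pass.

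Of 18 lysosome and late endosome genes listed, 11 were measured, and none passed in stage I. In stage II Laptm4b rose by 0.39 (limma adjusted p = 0.028) and Laptm4a fell by 0.25 (limma adjusted p = 0.00952), both genes of lysosomal membrane proteins, and 1 of 11 in each direction is near the shares over all genes. The Laptm4b call was lost without stage II ovary 3 (adjusted p = 0.164) and without control ovary 2, 3 or 6 (adjusted p of 0.0542, 0.053 and 0.0523). The lysosomal glycoproteins Lamp1 and Lamp2 had stage II differences of 0.08 and -0.04 and did not pass. Between stage II and stage I, Laptm4a fell by 0.30 (limma adjusted p = 0.0138) and Anxa2 rose by 0.57 (limma adjusted p = 0.036). The first of these calls was lost in 4 of 22 alternative settings and the second in 7. Among the fits with 1 array left out, the first was lost without stage I ovary 2 (adjusted p = 0.0537). The second was lost without stage I ovary 1, stage II ovary 3 or control ovary 5 (adjusted p of 0.0812, 0.153 and 0.0517).

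Cell type markers moved beside these genes in stage II, where 9.59% of all genes were called higher and 10.9% lower. Of 15 epithelial markers 9 were measured, and their mean log2 level was 7.06 to 7.48 in stage I ovaries and 7.38 to 7.79 in stage II ovaries, against 6.45 to 7.45 in control ovaries. In stage I none passed, although all 9 differences were above 0, with a median of 0.21. In stage II Krt8 rose by 3.59 (limma adjusted p = 1.03e-05), the claudin gene Cldn3 by 1.42 (limma adjusted p = 6.5e-05) and the epithelial transcription factor gene Elf3 by 0.82 (limma adjusted p = 0.00162). These 3 alone of the 9 passed. Over the list, 5 stage II differences were above 0 and 4 below, with a median of 0.06. Epcam, a surface marker of epithelia and a binding partner of tetraspanins, read 9.15, 9.60 and 8.97 in stage I ovaries and 8.12, 8.91 and 8.06 in stage II ovaries, against 8.28 to 9.74 in control ovaries, and its stage II difference of -0.67 did not pass (limma adjusted p = 0.154).

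None of the 4 measured oviduct markers of 7 passed in any comparison, and their mean log2 level was 5.77 to 7.73 in stage I ovaries and 5.53 to 7.39 in stage II ovaries, against 5.74 to 7.85 in control ovaries. Of 12 macrophage markers 8 were measured, and 6 of them rose in stage II, where 9.59% of all genes did, among them Cd14, a co-receptor of lipopolysaccharide, by 2.50 and Aif1, a cytoplasmic protein gene of macrophages, by 0.85. Cd14 had the largest difference of that list, and the median over its 8 measured markers was 0.51. The mean level of these 8 was 8.48 to 9.35 in stage I ovaries and 9.06 to 9.40 in stage II ovaries, against 8.34 to 8.60 in control ovaries. All 8 measured oocyte markers of 13 fell in stage II, where 10.9% of all genes did, with differences between -0.93 and -0.53, while Cd9, which oocytes carry, rose in the same ovaries.

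Of the other cell types, 5 of 6 measured granulosa markers and all 4 measured theca markers fell in stage II, beside 10.9% of all genes. In the same comparison 1 of 5 lymphocyte markers, Ptprc, rose by 0.45 (limma adjusted p = 0.0419), where 9.59% of all genes rose. That list is too short to set against this share. None of the 2 mesothelial, 4 luteal and 5 endothelial markers passed. No marker of these lists passed in stage I. The part of these cell types in the levels of Tspan8, Cd9 and the other tetraspanins was not tested.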

How the data were processed

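Total RNA of 12 mouse ovaries was measured on expression arrays. The authors deposited log2 values that were already normalized, by a method that no label states; software and genome build are likewise unstated. The labels name biotin as the label and also list Cy3 and Cy5 in the labelling mix, and the table holds 1 value per array. No scanner signals, detection calls or batches were used here, so no background level was set. Of the 16376 probe sets, 14674 had 1 gene symbol, 427 several and 1275 none. Of the symbols, 14632 matched RefSeq GRCm38.p6 and 0 changed.

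One mean per group was fitted to all 16376 probe sets with limma 3.58.1 in R 4.3.3 (lmFit and eBayes, 9 residual and 3.287 prior degrees of freedom), with Benjamini-Hochberg adjustment over all probe sets and a threshold of 0.05. The fit was also run on simulated data with the same spread in every group, so that run does not cover the unequal scatter seen for Tspan8. The labels call the samples bioreplicates, and the 3 comparisons share their groups. Lists (tetraspanins, partners, vesicle, lysosome and 10 sets of cell type markers) were counted over 10949 genes at the probe set with the highest mean. The members and the lists were chosen with earlier results of these data known. Genes were named by rule: every probe set of the members, up to 6 tetraspanins past the threshold with the largest change, up to 4 genes of each other pathway list and up to 2 of each marker list, the 2 with the largest change where none passed, and the 5 genes nearest to the Tspan8 profile. Other genes were named to describe a list. Alternatives were quantile normalization, array medians centred, the dimmest 25% of probe sets left out, array weights, a trended and robust prior, a replicate block, the compared groups alone, 1 probe set or the mean of the probe sets per gene, and arrays left out. Promoter windows came from RefSeq, where each member printed matched by symbol.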

Additional observations from a re-analysis of the deposited data

Results flagged for a closer look

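Among 35 genes or member probe sets examined over the 6 control ovaries, 2 had a control far from the others, measured as the gap to the nearest ovary over the whole range. Both passed Dixon's critical value at the 95% level for 6 samples, which chance passes in about 1 of 20 groups. Tspan17 had a ratio of 0.709, since control ovary 2 read 6.75 and the other controls 7.03 to 7.14. Laptm4b had a ratio of 0.647, since control ovary 4 read 11.02 and the other controls 10.59 to 10.74.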

How the results depend on the processing

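The Tspan8 differences kept their direction in each alternative run with all 4 probe sets, and 247 of their values moved by less than the spread between replicates while 8 moved by more, all 8 without stage I ovary 1. With 1 array left out, the difference with 1424649_a_at lay between 3.24 and 4.18 in stage I against control and between 1.66 and 2.60 in stage II against stage I. The Cd9 difference between the stages lay between 0.50 and 0.70 over these settings and lost its call in 2 of them, and its stage I difference was -0.027 without controls 1 and 4. The mean of the luteal markers was 12.76 and 12.98 in controls 1 and 4, against 11.20 to 11.71 in the other controls. The Cd81 differences were close to 0 and changed sign. With 1 array left out they lay between -0.021 and 0.046 in stage I, between -0.056 and 0.019 in stage II and between -0.063 and 0.0016 for stage II against stage I. In stage II, Cd81 was 0.037 with array weights and 0.023 without controls 1 and 4. Cd82 lay between -0.11 and 0.052 for stage II against stage I. With 1 array left out, tetraspanins other than Tspan8 called lower in stage II against control numbered 2 to 4, and for stage II against stage I 0 to 2 were higher and 0 to 3 lower. Without the 3 arrays of highest Ovgp1, 1 was higher for stage II against stage I, and with the compared groups alone 0 were lower. The causes were not tested.

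Same-numbered deviations from the group means correlated between -0.132 and 0.204, and 4 of 9 were best matched with their own number. Each was matched among only 3 numbers, so this check neither shows nor excludes a pairing of the ovaries by replicate number. A replicate block gave 672 higher and 387 lower genes in stage II against control, 419 and 153 in stage II against stage I, and 5 and 1 in stage I against control. With this replicate block, 2 tetraspanins were lower in stage II against control, and the stage II difference of Cd81 was 0.012. For stage II against stage I, 1 tetraspanin was lower with the block, and it was none of those that fell in the main fit. Tspan3, Tspan6 and Tspan14 lost that call with the block, at limma adjusted p of 0.0636, 0.0764 and 0.069. For stage II against stage I, over all genes, array weights called 1021 higher and 1100 lower, the compared groups alone 311 and 82, and the fit without the 3 arrays of highest Ovgp1 308 and 184. That fit called 11 genes higher in stage I and the fit without controls 1 and 4 called 13. Without stage II ovary 3, 699 genes were higher and 411 lower against control. For stage II against stage I the counts were 387 higher and 176 lower without stage I ovary 3, 399 and 181 without stage I ovary 2, 433 and 137 without stage II ovary 3, and 549 and 336 without stage II ovary 1. Of the other named genes, 588 values kept their call and 94 lost it. The number of arrays limits the precision, and no background signal was used here.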

Other observations

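Cd9 and Epcam ordered the control ovaries alike, which was noticed after the values were seen and carries no test. Control ovaries 1, 4, 3, 2, 6 and 5 had Cd9 levels of 10.08, 10.16, 10.26, 10.40, 10.43 and 10.58. Sorted by Epcam, the controls fell in the same sequence, between 8.28 in control ovary 1 and 9.74 in control ovary 5. Tspan8 with 1424649_a_at had this sequence too, from 6.97 in control ovary 1 to 7.81 in control ovary 5. So did the mean of the epithelial markers, which include Epcam, from 6.45 to 7.45. The sequence was therefore not particular to Cd9 and Epcam, and the other Tspan8 probe sets did not have it. In stage I ovaries Cd9 and Epcam were both highest in ovary 2 and lowest in ovary 3. In stage II ovaries Cd9 was highest in ovary 3 at 11.27, where Epcam was lowest at 8.06. Tspan1 was likewise lowest in control ovary 1 at 5.75 and highest in control ovary 5 at 6.91.

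Cd151 and Sdc1 ran differently across the controls. Both were highest in control ovary 4, at 11.02 for Cd151 and 12.14 for Sdc1. Without controls 1 and 4, Cd9 was above control in stage II by 0.60 (limma adjusted p = 0.00401) and Cd151 by 0.87 (limma adjusted p = 0.000525).

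Tspan32 differed between its probe sets. The dim probe set 1418398_a_at rose in stage II by 0.40 (limma adjusted p = 0.018), and the brighter 1431289_at had a difference of 0.11 (limma adjusted p = 0.413).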
